A study of Mus musculus with 74 samples.

Results

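Interferon-stimulated and antigen processing genes were described here as a set of 41 mouse genes, through the promoter capture Hi-C contacts of the restriction fragments that hold their annotated starts or ends. The rule takes the 41 genes by name and uses no measured value. They are among 21890 genes considered, all protein-coding except a few listed genes such as Mx1 and Mx2. At least 1 captured fragment lay at the start or end of 39 of them, against 16722 genes in all, and Mx2 and Trim30a had none. Because neighbours share fragments, the 39 genes were read from 40 distinct fragments of the 21022 that the lists hold: Dtx3l with Parp9, Psmb9 with the start of Tap1, Psmb8 with the end of Tap1, Ifit3 with the end of Ifit2, and Oas2 with the end of Oas3. Contacts counted for such pairs are the same contacts. Some fragments, among them fragments of Rtp4, Eif2ak2, Oasl1, Oas3, Ifi27 and Xaf1, also hold a start or end of genes outside the set. Their contacts are not those of the member alone.

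Promoter capture Hi-C joins HindIII-cut DNA ends that lie close together in the nucleus and then enriches the joined pieces that carry a promoter, so each listed contact pairs a captured fragment with another end and carries a score of 5 or more. Interactions were deposited as 3 lists, each standing for 2 libraries. The HPC list came from untransduced HPC-7 cells, a mouse haematopoietic progenitor line, kept with stem cell factor (SCF) at 100 ng/ul. The Ery Luc and Ery shStag2 lists came from HPC-7 cells that carried an inducible hairpin RNA against luciferase (the control) or against Stag2, a subunit of the cohesin ring that shapes chromatin loops. Both were given doxycycline for 72 h (1 Ery Luc library is labelled 73 h), erythropoietin at 4 U/l and SCF at 20 ng/ul. The HPC list therefore differs from the Ery lists in transduction and doxycycline as well as in stage, and these cannot be told apart. With 1 list per condition there was no replicate, so no difference below has a test, and a contact missing from a list may have scored just under 5. The labels give 1 cell type for all libraries and no expression values were analysed here, so neither the erythroid stage nor the knockdown was checked.

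Interferons bind cell-surface receptors, whose JAK kinases activate transcription factors of the STAT family. STAT2 acts with IRF9 in a complex that binds the interferon-stimulated response element in promoters, and IRF1 and IRF7 bind related elements. The induced genes encode sensors of foreign RNA, enzymes that degrade or edit RNA, proteins that block virus entry or release, and the immunoproteasome, peptide transporter and light chain through which cells display peptides on MHC class I.

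The promoter windows of a few members are shown because their contacts are described in the sections that follow. RefSeq windows of the GRCm38.p6 build, from 250 bases before to 50 after the start, matched 31 of the 41 members. A response-element-like motif, GAAA followed by any 2 bases and GAAA again, on either strand with overlapping matches counted, lay in 15 of the 31 (48.4%), against 689 of 17492 genes (3.94%). A STAT-dimer-like motif, TTCNNNGAA, which reads alike on both strands, lay in 8 of the 31 (25.8%), against 1560 of all genes (8.92%). In the sequences, printed 5′ to 3′ on the gene's own strand, capitals mark either motif. Isg15 is at chr4:156200819-156201068 (minus strand) and holds 3 overlapping response-element-like matches. Ifit1 is at chr19:34640639-34640888 (plus strand) with 2 matches, and B2m at chr2:122147437-122147686 (plus strand) with 1. Irf1 is at chr11:53769764-53770013 (plus strand) with 1 match to the STAT-dimer-like motif. The interval between the divergently transcribed Psmb9 and Tap1, chr17:34187331-34187555 (given on the plus strand), holds no match to either. All 5 lie inside the captured fragments described here.
Isg15: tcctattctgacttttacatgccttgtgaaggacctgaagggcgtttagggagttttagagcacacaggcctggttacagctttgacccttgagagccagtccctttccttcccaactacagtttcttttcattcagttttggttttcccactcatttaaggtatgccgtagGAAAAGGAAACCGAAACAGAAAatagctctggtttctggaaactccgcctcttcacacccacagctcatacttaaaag
Ifit1: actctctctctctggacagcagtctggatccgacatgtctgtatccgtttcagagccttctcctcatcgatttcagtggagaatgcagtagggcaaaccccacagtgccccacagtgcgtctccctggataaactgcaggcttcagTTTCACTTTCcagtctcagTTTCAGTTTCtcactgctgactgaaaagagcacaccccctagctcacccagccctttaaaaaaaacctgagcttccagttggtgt
B2m: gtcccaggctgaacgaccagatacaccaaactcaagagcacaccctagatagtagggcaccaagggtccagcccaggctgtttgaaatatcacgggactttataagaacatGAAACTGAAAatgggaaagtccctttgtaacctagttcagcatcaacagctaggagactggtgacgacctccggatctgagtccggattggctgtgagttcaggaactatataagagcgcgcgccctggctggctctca
Irf1: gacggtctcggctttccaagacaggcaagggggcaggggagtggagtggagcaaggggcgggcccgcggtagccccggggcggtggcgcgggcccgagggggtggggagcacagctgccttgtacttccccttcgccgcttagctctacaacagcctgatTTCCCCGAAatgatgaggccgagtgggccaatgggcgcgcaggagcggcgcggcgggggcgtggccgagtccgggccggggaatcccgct
Psmb9 and Tap1: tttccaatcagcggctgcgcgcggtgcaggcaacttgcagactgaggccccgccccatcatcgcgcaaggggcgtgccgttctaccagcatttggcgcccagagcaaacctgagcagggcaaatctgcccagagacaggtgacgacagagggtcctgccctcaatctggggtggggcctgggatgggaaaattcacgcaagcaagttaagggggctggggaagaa

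The whole lists held 112183 (HPC), 123042 (Ery Luc) and 130734 (Ery shStag2) interactions, of which 111657, 114254 and 120982 were within chromosomes. The 40 fragments accounted for 226, 164 and 190 of the latter, so the set had its most contacts in HPC while the lists as a whole were largest in Ery shStag2. The members' contacts also carried lower scores than the lists as a whole. Their median score was 6.32, 5.93 and 5.9 in the 3 lists, against 6.55, 6.35 and 6.39 for all contacts, and 7.52% (exact binomial 95% interval 4.44 to 11.8), 4.88% (2.13 to 9.39) and 4.74% (2.19 to 8.8) scored 10 or more, against 14.5%, 11.8% and 12.3%. These intervals cover counting error only. The members' median distance was 114, 199 and 255 kb, against 154, 214 and 241 kb for all contacts. Contacts beyond 1 Mb numbered 0 of 226 in HPC, which allows up to 1.62%, 8 of 164 in Ery Luc and 17 of 190 in Ery shStag2 (8.95%), and the whole lists moved the same way, from 1.15% to 7.05% and 8.81%.

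Between HPC and Ery Luc, 37 members had a contact in either list. Of these, 15 (40.5%) had at least 2 fewer contacts in Ery Luc and 6 (16.2%) had at least 2 more. Over the 14958 genes with a contact, 27.6% had at least 2 fewer and 34.2% at least 2 more. The median difference was -1 for the members and 1 for all genes. The direction of genes at large depended on which contacts were counted. With contacts of at most 1 Mb, 30.5% of all genes had more and 30.5% fewer, against 6 and 17 of 35 members. At scores of 7 or more 21.9% of all genes had more and 27.1% fewer, against 3 and 14 of 26 members, and at scores of 10 or more 14.2% and 22.9%, against 1 and 3 of 15 members. Between Ery Luc and Ery shStag2, 38 members had a contact, and 13 (34.2%) had at least 2 more in Ery shStag2 and 9 (23.7%) at least 2 fewer. Both shares lay near those of the 15362 genes compared, 31.0% and 25.5%, with a median difference of 0.5 for the members and 0 for all genes. Both comparisons use the Ery Luc list, so a low or high count there enters each with the opposite sign.

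**Figure D1:**
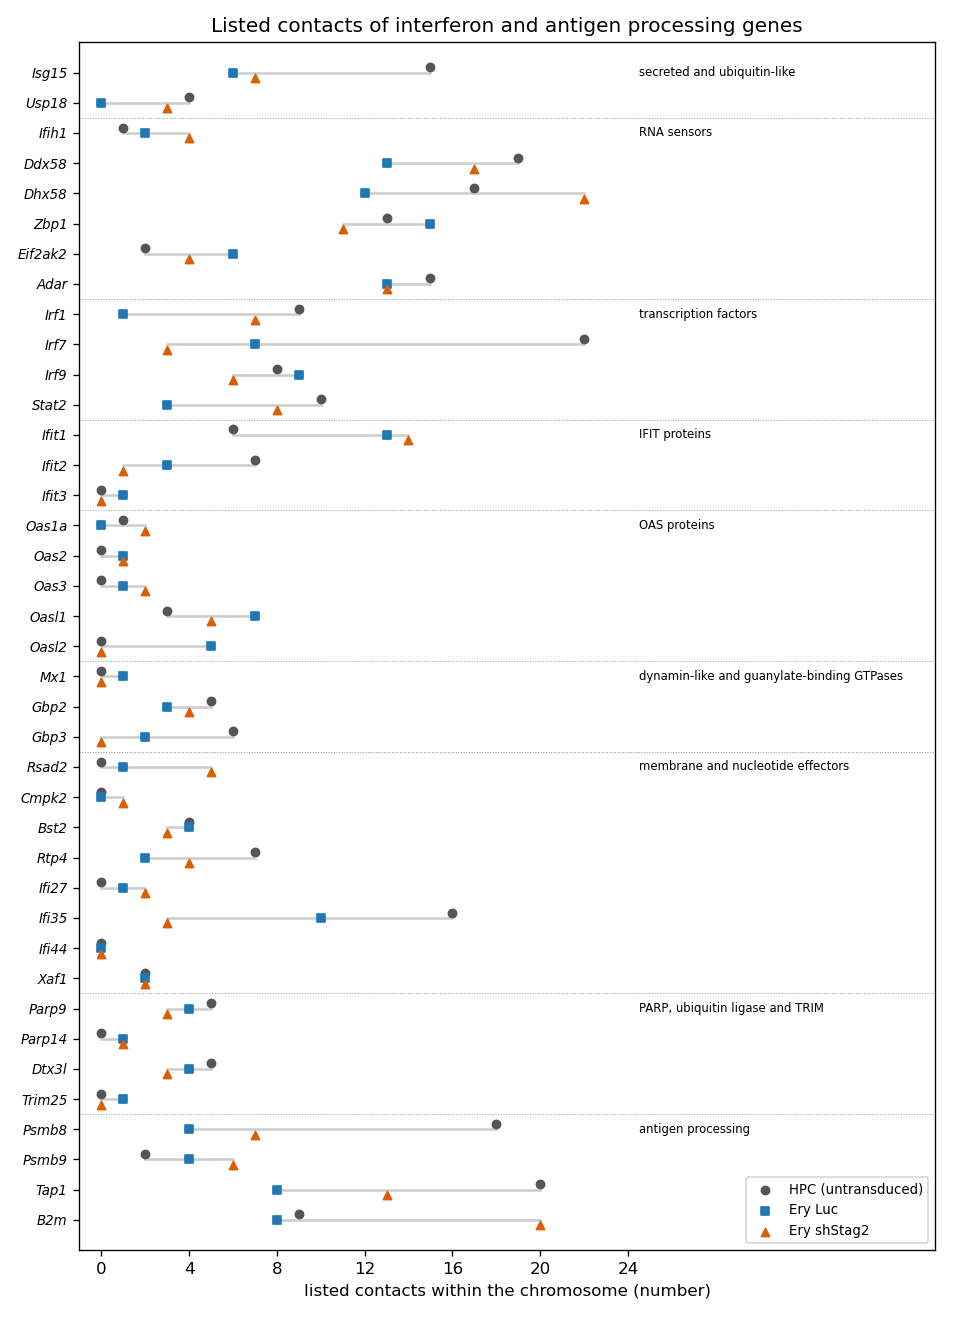
Number of listed contacts within the chromosome (x axis) for each of the 39 genes with a captured fragment (y axis, grouped by role), in HPC (circles), Ery Luc (squares) and Ery shStag2 (triangles); grey lines span the 3 values. Irf7 runs from 22 in HPC to 3 in Ery shStag2, and B2m stands at 20 in Ery shStag2 against 9 and 8.

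**Figure D2:**
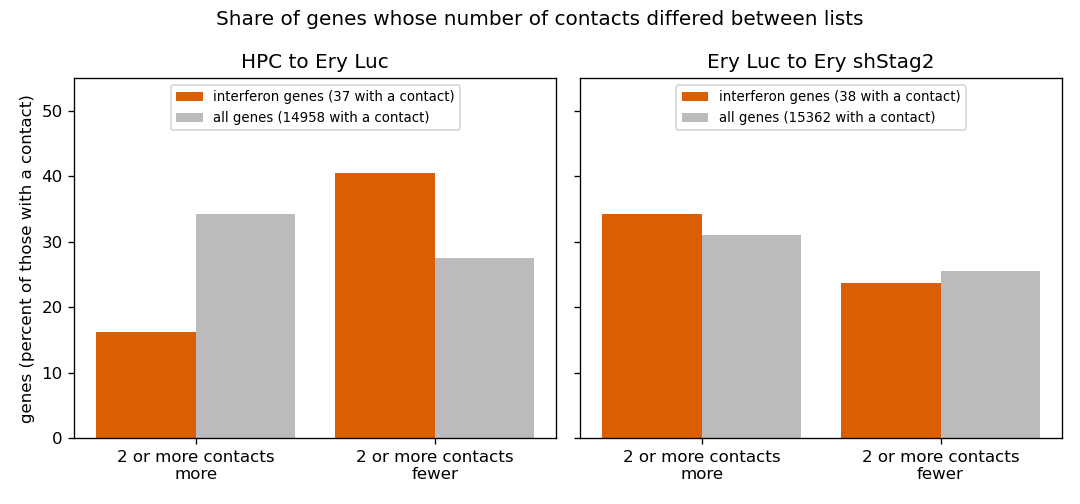
Percent of genes with at least 2 more or 2 fewer contacts in the second list, for the interferon genes (orange) and all genes (grey), of those with a contact in either list. In HPC to Ery Luc 40.5% of the interferon genes had fewer, against 27.6% of all genes; in Ery Luc to Ery shStag2 the bars of the interferon genes and all genes are within a few percentage points.

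Of the secreted and ubiquitin-like members, Isg15, the ubiquitin-like modifier that is attached to proteins during the response, had 15 contacts in HPC, 6 in Ery Luc and 7 in Ery shStag2. Its fragment, chr4:156198838-156202777, reached a gene-dense stretch 70.1 to 378 kb away at chr4:155821418-156131498, which runs from Ccnl2 to Rnf223. Tnfrsf18, the gene of a TNF receptor family member, was touched by 1, 0 and 1 of the contacts. That stretch held 14, 6 and 6 of the contacts, with top scores of 9.93, 7.22 and 9.47. Only 2 HPC contacts of Isg15 recurred in Ery Luc, and 11 were listed in HPC alone. The fragment was also the other end in 15, 10 and 12 contacts of further captured fragments. Usp18, the protease that removes ISG15 from proteins, had 4, 0 and 3 contacts, and none of them was in more than 1 list: those of HPC lay mostly 45.4 to 59.7 kb away near Pex26, and those of Ery shStag2 282 to 405 kb away near Mical3 and Bcl2l13.

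Among the RNA sensors, Ddx58 (RIG-I) and Dhx58 (LGP2), helicases that recognise viral RNA, were 2 of the 4 members with the most contacts over the 3 lists, 49 and 51, beside Adar and Tap1 with 41 each. Ddx58 had 19 contacts in HPC, 13 in Ery Luc and 17 in Ery shStag2. In each list most of them went to 1 stretch at chr4:40669164-40729612, 431 to 490 kb away that includes Aptx, a DNA repair gene, and Dnaja1, a chaperone gene, with 13, 12 and 14 contacts and top scores of 11.63, 14.99 and 15.7. Compared with HPC, the lower Ery Luc count of Ddx58 thus came mostly from outside that stretch. Compared with Ery shStag2, Ery Luc had fewer both inside and outside it. Outside it, 3, 0 and 2 contacts lay 96.1 to 103 kb toward lower coordinates, 1 of them, in Ery shStag2, at the start of Aco1. Counted at scores of 7 or more, Ddx58 had 3, 6 and 10 contacts, so the direction between HPC and Ery Luc turned (a difference of 3, and of 2 at scores of 10 or more).

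Dhx58 shares its 632 bp fragment, chr11:100704128-100704759, with Kat2a, a histone acetyltransferase gene, and had 17, 12 and 22 contacts. A stretch 61.2 to 345 kb toward lower coordinates, from Jup to Zfp385c, held 15, 9 and 15 of them. The top score there went from 10.39 in HPC to 8.8 and 8.27. On the higher side, contacts near Cavin1, a gene for a caveola coat protein, numbered 1, 3 and 3, and those from Atp6v0a1 to Coasy 1, 0 and 3. Of the 22 contacts in Ery shStag2, 13 were in neither other list.

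The other sensors and effectors of foreign RNA include enzymes that edit RNA or halt translation. Adar, which edits adenosine to inosine in double-stranded RNA, had 15, 13 and 13 contacts, and 10 of them were in all 3 lists. Between 10 and 12 of the Adar contacts in each list lay in a stretch 120 to 220 kb away that runs into Kcnn3, a potassium channel gene, with top scores of 10.92, 12.26 and 12.63. The other ends held or lay inside Kcnn3 in 6, 4 and 3 of the Adar contacts. Of the contacts of Ddx58, by comparison, 7 were in all 3 lists. Zbp1, a sensor of Z-form nucleic acid, had 13, 15 and 11, nearly all at chr2:173418941-173562155, and its top score in that stretch went from 7.42 to 11.2 and 10.11. Eif2ak2, the kinase PKR that halts translation, had 2, 6 and 4 contacts within its chromosome. A contact in Rmdn2, 704 kb away, had the highest score in each list (7.43, 9.5 and 7.51), and 2 of the Ery Luc contacts were 69900 and 73500 kb away with scores of 6.03 and 5.11. With other chromosomes counted, the Eif2ak2 difference between Ery Luc and Ery shStag2 turned to 1 more. Ifih1 (MDA5) had 1, 2 and 4 contacts.

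The transcription factors had at least 2 fewer contacts in Ery Luc than in HPC in 3 of 4 cases, against 27.6% of all genes. Irf7, the factor that drives interferon-alpha genes, had 22 contacts in HPC, 7 in Ery Luc and 3 in Ery shStag2, the largest difference between HPC and Ery Luc in the set (-15). Its fragment, chr7:141262342-141267776, also holds an end of Phrf1. Within 142 kb on both sides, from Phrf1 to Taldo1, it had 18, 7 and 3 contacts. The strongest contact, inside Phrf1 at -14.4 kb (negative distances lie toward lower coordinates), scored 11.84 in HPC, was not listed in Ery Luc and scored 5.1 in Ery shStag2. A contact at 61.9 kb in Deaf1, a transcription factor gene, was the only one in all 3 lists, with scores of 9.79, 8.19 and 5.11. Contacts of Irf7 at scores of 7 or more numbered 10, 2 and 0.

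Irf1, an early transcription factor of the interferon-gamma response, had 9 contacts in HPC, 1 in Ery Luc and 7 in Ery shStag2. All 9 HPC contacts lay 10.2 to 82.2 kb away at chr11:53781472-53856960, where Ery Luc kept 1 and Ery shStag2 had 3, with top scores of 8.95, 7.03 and 5.97. The other 4 in Ery shStag2 lay elsewhere, 2 of them 41900 and 48200 kb away, so the count came closer to that of HPC while most places differed: 2 HPC contacts absent from Ery Luc were listed in Ery shStag2. At scores of 7 or more Irf1 had 3, 1 and 0, which turns the difference between the Ery lists to -1.

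Stat2, read from a fragment at the gene's end that also holds Il23a, had 10, 3 and 8 contacts. Those 10.6 to 84.6 kb away numbered 9, 2 and 2, and those 154 to 159 kb away in Rbms2 1, 0 and 1. Those 161 to 258 kb away numbered 0, 1 and 4, and in Ery shStag2 other ends among them touched Myl6 and Rpl41. Of the 8 contacts of Stat2 in Ery shStag2, 6 were in neither other list. Irf9, which joins the STAT proteins on DNA and shares its fragment with Rnf31, had 8, 9 and 6.

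**Figure D3:**
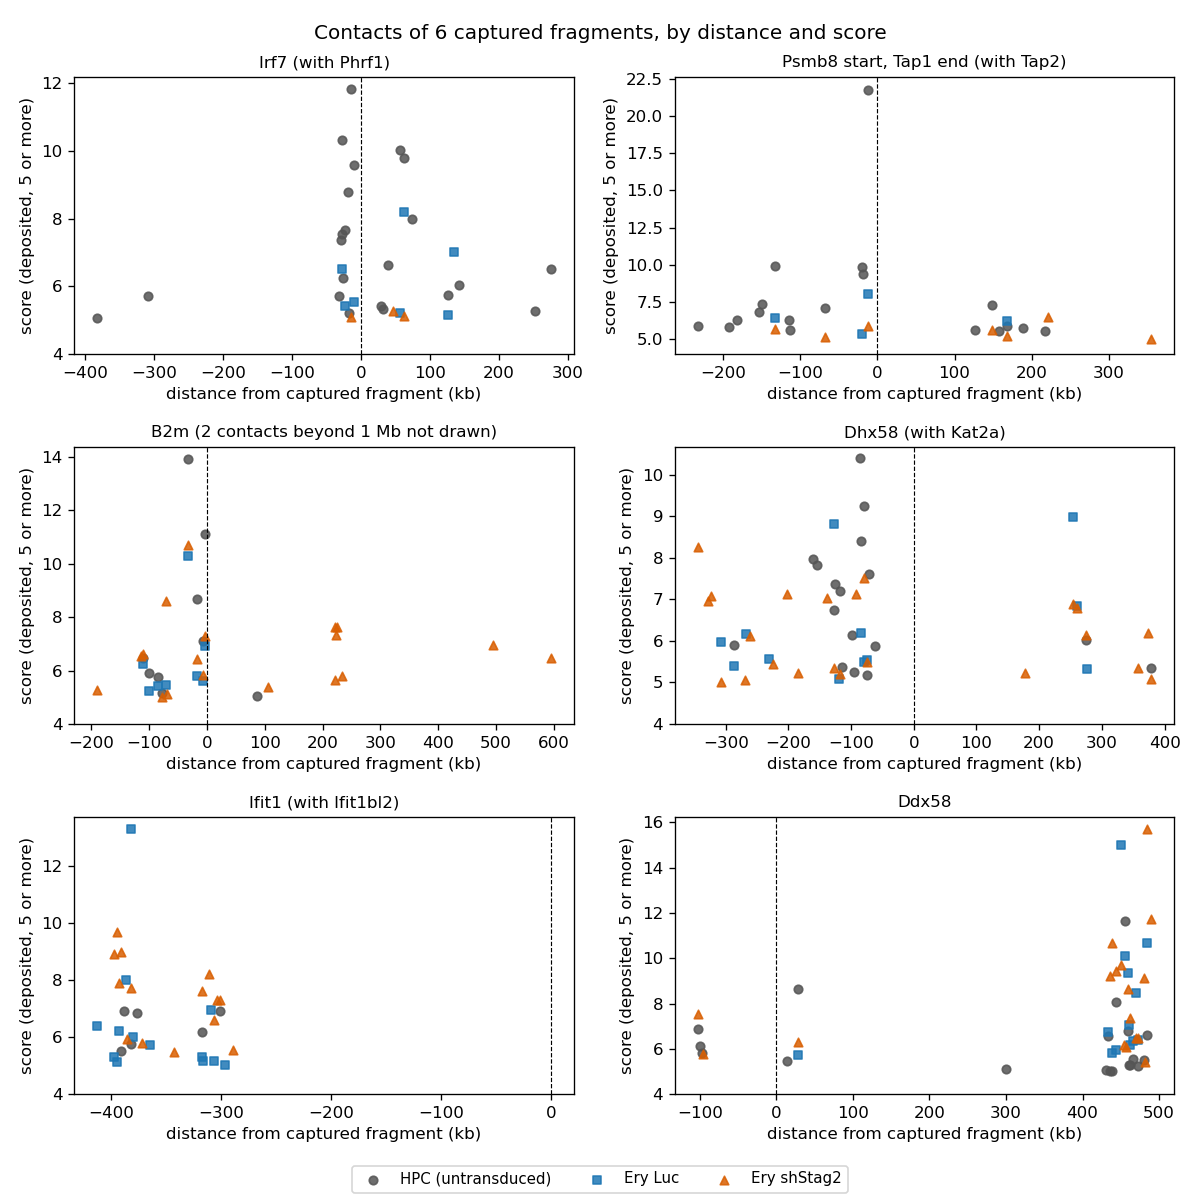
Score (y axis, linear, lowest deposited value 5) of each contact against its distance in kb from the captured fragment (x axis, dashed line at 0), for 6 fragments in HPC (circles), Ery Luc (squares) and Ery shStag2 (triangles); each panel has its own axes. The circles of Irf7 and of the Psmb8 fragment reach 11.84 and 21.78, above the other 2 lists, while the contacts of Ifit1 and Ddx58 gather in stretches 289 to 413 kb and 431 to 490 kb away.

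The IFIT proteins bind the ends of foreign RNA and block its translation, and their genes sit side by side on chromosome 19. Ifit1 had 6 contacts in HPC, 13 in Ery Luc and 14 in Ery shStag2, the largest positive difference between HPC and Ery Luc in the set (7). Every contact of Ifit1 lay 289 to 413 kb away at chr19:34224233-34355056, a stretch that includes Stambpl1, a deubiquitinase gene, Acta2, the smooth muscle actin gene, and Fas, a death receptor gene, with top scores of 6.91, 13.28 and 9.68. The contact with the fragment that holds the Acta2 start, at -382 kb, was in all 3 lists and scored 5.76, 13.28 and 7.7. The fragment of Ifit1 at chr19:34635298-34641180 also holds an end of Ifit1bl2, and both genes share these contacts. Its neighbour Ifit2 went the other way, with 7, 3 and 1 contacts. Of these, 3, 3 and 1 reached fragments that hold the start or end of Acta2 or lie inside it. Another 3, in HPC alone, lay in Ifit1bl1. Ifit3 had 0, 1 and 0.

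The OAS family includes enzymes that make oligoadenylates in response to double-stranded RNA. None of the family's genes in the set had more than 7 contacts in a list. Oasl2 had 0, 5 and 0, all 5 of them 122 to 205 kb away near Git2 and Ankrd13a with a top score of 6.35. Oasl1 had 3, 7 and 5 on its 2 fragments, of which 1, 3 and 1 reached Git2 at 152 to 167 kb and 1, 1 and 1 reached Sppl3 at 141 to 156 kb. Counting only scores of 7 or more gave Oasl1 2, 0 and 0, and counting either column gave 12, 14 and 16, so the sign of both of its differences depends on how contacts are counted (-2 and 2). Oas1a (1, 0 and 2), Oas2 (0, 1 and 1) and Oas3 (0, 1 and 2) had too few contacts to order the lists.

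The GTPases Gbp2 and Gbp3, which coat the vacuoles of intracellular pathogens, lie in a cluster on chromosome 3. Gbp2 had 5, 3 and 4 contacts and Gbp3 6, 2 and 0. The Gbp3 contacts in HPC lay 63.7 to 70.8 kb away (4, of which 1 holds the start of Gbp5) and 53.5 to 58.4 kb away on the other side in Gbp2b (2). Those in Ery Luc were 2 of the first kind, 1 of them at the start of Gbp5. The Gbp2 and Gbp3 fragments contacted each other at -62.5 kb with scores of 12.14 in HPC and 8.39 in Ery shStag2, and the pair was not listed in Ery Luc. Mx1 had 0, 1 and 0, and both Mx1 and Mx2 are annotated as transcribed pseudogenes in the reference strain.

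The remaining effectors held few contacts, with Ifi35 and Rtp4 as exceptions. Ifi35, a modulator of innate signalling read from a fragment at its end shared with Vat1 and Rnd2, had 16, 10 and 3. Of these, 15, 10 and 3 lay 19.4 to 108 kb away at chr11:101480018-101571285. The difference of -7 between Ery Luc and Ery shStag2 was the most negative in the set, and 3 contacts were in both of these lists. Rtp4, a receptor-transporting protein, was read from a fragment shared with Masp1 and had 7, 2 and 4 contacts. Of these, 7, 2 and 3 lay 354 to 437 kb away near Sst, the somatostatin gene, and Rtp2, with top scores of 12.51, 6.67 and 5.85. Rsad2 (viperin), which makes a chain-terminating nucleotide, had 0, 1 and 5, and all 5 in Ery shStag2 were more than 1 Mb away. Bst2 (tetherin), which holds budding virus at the cell surface, had 4, 4 and 3. Cmpk2 (0, 0 and 1), Ifi27 (0, 1 and 2) and Xaf1 (2, 2 and 2) had 2 or fewer in each list, and Ifi44 had a captured fragment but no contact within its chromosome. Dtx3l and Parp9, partners in ubiquitin and ADP-ribose transfer, had 5, 4 and 3 contacts on their shared fragment, one of them with Parp14 at -66.8 kb in HPC (5.17) and Ery Luc (5.93). Parp14 (0, 1 and 1) and Trim25 (0, 1 and 0), the ubiquitin ligase that acts on RIG-I, were near 0 throughout.

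All 4 antigen processing members had at least 2 more contacts in Ery shStag2 than in Ery Luc, against 31.0% of all genes. Between HPC and Ery Luc 2 of the 4 had at least 2 fewer, against 27.6% of all genes. In the wider antigen processing list described below, 3 of 15 had more and 8 fewer between the Ery lists. Psmb8, Psmb9 and Tap1 lie together in the MHC region of chromosome 17 and share fragments, so they are not 3 separate observations. At scores of 7 or more, the difference between the Ery lists was -1 for Psmb8 and Tap1, 0 for Psmb9 and 5 for B2m. Psmb8, an immunoproteasome subunit, had 18 contacts in HPC, 4 in Ery Luc and 7 in Ery shStag2 on the fragment chr17:34195308-34211953, which also holds ends of Tap1 and Tap2. Toward lower coordinates, up to 233 kb away, it had 12, 3 and 3. Other ends there touched Col11a2 (3, 1 and 1), Psmb9 (2, 1 and 0) and H2-DMa (1, 0 and 1), among others. Those 126 to 221 kb toward higher coordinates, from H2-Eb2 to BC051142, numbered 6, 1 and 3. Its strongest contact, inside Tap1 at -11.6 kb, scored 21.78, 8.06 and 5.92. At scores of 7 or more Psmb8 had 7, 1 and 0. Counted in either column it had 31, 17 and 15, so between the Ery lists its difference turned to -1 and -2.

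Tap1, which pumps peptides into the endoplasmic reticulum, had 20, 8 and 13 contacts over both fragments, and Psmb9, another immunoproteasome subunit, had 2, 4 and 6 on the fragment chr17:34187164-34190209 that holds the interval printed above. The counts of Tap1 therefore follow those of Psmb8 at 1 end and of Psmb9 at the other: with the start fragment alone, Tap1 had 2 more in Ery Luc than in HPC. In a stretch 157 to 194 kb away the fragment of Psmb9 had 0, 1 and 4 contacts. Those at 183 and 194 kb, in Ery shStag2 alone, touched Btnl2 and Btnl1, genes of butyrophilin-like proteins. The 2 fragments also contacted each other over 14.9 kb, with scores of 21.62, 7.95 and 7.48.

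B2m, the invariant light chain of MHC class I, had 9 contacts in HPC, 8 in Ery Luc and 20 in Ery shStag2, the largest positive difference between the Ery lists in the set (12). Close by, 3.92 to 114 kb toward lower coordinates over Patl2, Spg11 and Eif3j1, it had 8, 8 and 9 contacts with top scores of 13.92, 10.28 and 10.71. The further contacts lay farther out. At chr2:122366086-122381667, 221 to 233 kb toward higher coordinates around Shf, an adaptor protein gene, there were 0, 0 and 5 contacts, with a top score of 7.63. Single contacts in Ery shStag2 alone reached AA467197 at 495 kb and Bloc1s6 at 595 kb, and 2 lay beyond 1 Mb. At scores of 7 or more B2m had 4, 1 and 6.

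Whether the same pairs of fragments were listed again was counted next. Of their 226 contacts in HPC, 79 (35%, exact 95% interval 28.8 to 41.6) joined the same 2 fragments in Ery Luc, against 45.3% of all HPC contacts. Those 79 were 48.2% (40.3 to 56.1) of the members' 164 contacts in Ery Luc, where the share of all was 44.2%, so the members lay below all contacts from the HPC side and not from the Ery Luc side. Of the 164 in Ery Luc, 66 (40.2%, 32.7 to 48.2) were in Ery shStag2, against 47.6% of all, and these were 34.7% of the members' 190 contacts there, against 45% of all. These intervals treat each contact as separate, although many come from the same fragment and stretch, and they cover counting error only. Of the 17 HPC contacts that scored 10 or more, 2 (11.8%) also scored 10 or more in Ery Luc, against 40.1% of all such contacts. With the other end allowed to lie within 10 kb, the shares of members' contacts were 64.2% from HPC to Ery Luc and 66.5% from Ery Luc to Ery shStag2, against 72% and 72.6% of all contacts.

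Members with and without a match to the response-element-like motif were also counted by direction of difference. Of the 14 members with a match and a contact, 2 had at least 2 more and 5 at least 2 fewer in Ery Luc than in HPC, against 3 and 7 of 14 members without a match. Between the Ery lists, 6 had more and 2 fewer of 14 with a match, against 4 and 6 of 15 without. Over all genes, 34.2% had more and 27.6% fewer between HPC and Ery Luc, and 31.0% and 25.5% between the Ery lists. These are descriptions of small counts, with no test.

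Other genes of the same pathways, taken from 4 lists of 78 genes, gave values upstream and downstream of the members. The shares of all genes, given above, were 34.2% with more and 27.6% with fewer between HPC and Ery Luc, and 31.0% and 25.5% between the Ery lists. No difference between a list and all genes, or between 2 lists, was tested. Some named genes share a fragment with others, so their contacts are not theirs alone. These are Ptpn6 (with Grcc10), Ikbke (Srgap2), Irf3 (Bcl2l12), Cgas (Mto1), Igtp (Irgm2), Canx (Maml1), Pdia3 (Catsper2 and Ell3), Tap2 and H2-DMa. For receptors and kinases of interferon signalling, 8 of 14 had at least 2 more contacts in Ery Luc than in HPC and 3 at least 2 fewer, and 5 and 4 of 14 in Ery shStag2 compared with Ery Luc. Jak2 had 11, 17 and 7 contacts, Tyk2 2, 9 and 4, and Jak1 25, 17 and 21, all 3 kinases that sit on cytokine receptors. Ifnar1, a chain of the interferon alpha receptor, had 16, 11 and 10, and Ptpn6, a phosphatase that restrains JAK signalling, 2, 4 and 12.

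For sensing adaptors and kinases, 5 of 15 had more and 3 fewer between HPC and Ery Luc, and 2 and 6 of 14 between the Ery lists. Nfkb1 had 5, 18 and 16 contacts, Rela 3, 9 and 6, and Ikbke, a kinase that activates IRF3, 31, 20 and 25. Irf5 had 10, 4 and 2, Irf3 8, 9 and 1, Ticam1, an adaptor of Toll-like receptors, 34, 31 and 23, and Cgas, a DNA sensor, 3, 6 and 8. The NF-kappaB subunits thus had more contacts in Ery Luc than in HPC while Ikbke and Irf5 had fewer.

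For further interferon-induced genes, 6 of 23 had more and 10 fewer between HPC and Ery Luc, and 8 and 2 of 24 between the Ery lists. The immunity-related GTPase genes Irgm1 (23, 42 and 36) and Igtp (0, 9 and 16) had more in Ery Luc than in HPC. The membrane protein genes Ifitm1 and Ifitm2, which hinder virus entry, had 16, 9 and 9 and 12, 6 and 4. Trim21, an antibody-binding ubiquitin ligase, had 2, 2 and 13.

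For antigen processing and presentation, 5 of 15 had more and 8 fewer between HPC and Ery Luc, and 3 and 8 of 15 between the Ery lists. Psmb10, the remaining immunoproteasome catalytic subunit, had 14, 31 and 32, and Cd74, the invariant chain of MHC class II, 4, 12 and 13. H2-DMa, which loads peptides on MHC class II, had 53, 27 and 24 on fragments shared with Brd2 and H2-DMb2. Tap2, read from 2 fragments, had 26, 10 and 10, which include the 18, 4 and 7 contacts of the Psmb8 fragment. H2-Aa had 15, 3 and 8. Of the chaperones of peptide loading, Pdia3 had 10, 8 and 12 and Canx 17, 12 and 7. The 4 antigen processing members are not in this wider list.

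**Figure D4:**
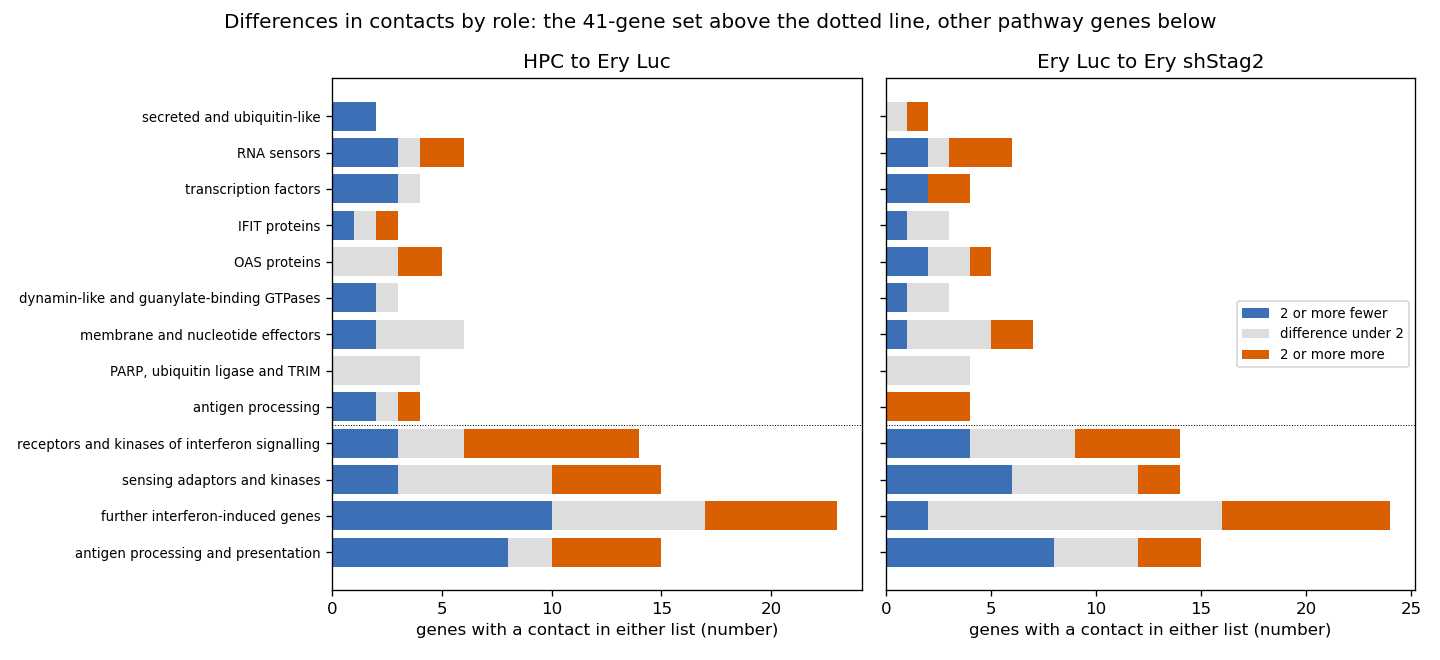
Number of genes (x axis) with at least 2 fewer contacts (blue), a difference under 2 (grey) or at least 2 more contacts (orange) in the second list of each comparison, for the 9 roles within the set (above the dotted line) and 4 lists of other pathway genes (below it). All 4 antigen processing genes of the set are orange in Ery Luc to Ery shStag2 (31.0% of all genes had at least 2 more). In HPC to Ery Luc 8 of 14 receptors and kinases are orange (34.2% of all genes).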

How the data were processed

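Promoter capture Hi-C of HPC-7 cells was used through 3 interaction lists, which the authors deposited as pairs of fragments with a score each. Per the submitters' processing notes the build is mm10. The software behind the score is not given in the sources used here, and the lowest deposited score is 5. Each list stands for 2 libraries, so there is no replicate, no error between libraries and no p-value, and read depth is unknown.

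Contacts were assigned to a gene when the captured fragment (the first of the pair) held its annotated start or end in RefSeq GRCm38.p6 (pandas 2.3.3, numpy 2.4.6, scipy 1.17.1, Python 3.11.15). Contacts within the chromosome were counted, and a difference of at least 2 was called. Other ends separated by at most 50 kb were joined into stretches, so a gene within a stretch need not be touched by a contact. Captured pairs are listed once, with the lower coordinate first in 49.1% to 49.2%, so counts also depend on column order. Distinct contacts were compared between lists with exact binomial 95% intervals. The counting was tested on a copy of the HPC list with gains and losses planted. These were in genes alone on their fragment with several contacts, so shared fragments and low counts were not covered.

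Members and gene lists were chosen with earlier results of these data known. Every member with a contact is given by its 3 counts. Contact positions are given for the 4 members with the largest difference per direction and comparison and the 4 with the most contacts. Those of Usp18, Stat2, Ifit2, the Gbp genes, Rtp4, Rsad2, Psmb9 and the Dtx3l fragment were added after their values were seen. Of each other list the 2 genes with the largest difference per direction and comparison are named, except that some are not reported here. RNA counts of 15 libraries in 6 groups name transcript identifiers that no table used here pairs with genes, and were not analysed here. Chromatin immunoprecipitation was not analysed here. Alternatives covered the score, distance, column, fragment choice, other chromosomes and list size.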

Additional observations from a re-analysis of the deposited data

Results flagged for a closer look

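Contacts with other chromosomes or unplaced scaffolds are outside the counts of the report, and they were most frequent for Isg15 in all 3 lists. Eif2ak2 came next in Ery shStag2 only. Oasl1, with 2, 3 and 2, came next in HPC and Ery Luc. Isg15 had 13 such contacts in HPC, 13 in Ery Luc and 18 in Ery shStag2. Of these, 10, 11 and 11 joined its fragment to 1 unplaced scaffold assigned to the same chromosome 4. Over all of its contacts outside the chromosome, the median score was 11.93, 31.41 and 17.48 and the top score 80.94, 111.04 and 71.64. The top score of any member within its chromosome was 21.78. Where that scaffold lies relative to Isg15 was not tested. Eif2ak2, the kinase PKR, had 4 contacts with other chromosomes in Ery shStag2, 2 of them with chromosome X, with a median score of 5.72 and a top score of 6.14.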

How the results depend on the processing

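Score limits moved the counts most. Between HPC and Ery Luc, 6 of 37 members had at least 2 more contacts. These became 3 of 26 at scores of 7 or more, 1 of 15 at 10 or more and 10 of 38 with other chromosomes counted. The shares of all genes at these settings were 21.9%, 14.2% and 39.0%. The 15 members with fewer became 3 at 10 or more and 9 of 25 with start fragments only, where 26.7% of all genes had fewer. The start-only setting leaves out every gene without a promoter window, since its strand was not known here. Usp18, Dhx58 and Rtp4, which had fewer contacts in Ery Luc, dropped out for that reason. Between the Ery lists, the 13 with more became 5 of 20 and 1 of 6 at scores of 7 and 10 or more, against 23.9% and 17.8% of all genes. The 9 with fewer became 1 and 0 at those scores, against 18.7% and 13.6% of all genes. They became 5 of 38 both per 100000 contacts of the list and with a difference of at least 3, against 19.6% and 17.2%. Fewer contacts pass a stricter score, so these counts rest on fewer members. The shares of all genes moved too: at scores of 10 or more 3 of 15 members had fewer contacts in Ery Luc than in HPC, near the 22.9% of all genes.

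The share of the members' HPC contacts found in Ery Luc, 35%, was 64.2% within 10 kb. It was 17.6% at scores of 7 or more and 11.8% at 10 or more. For all contacts these 3 shares were 72%, 42.7% and 40.1%. The share of the members' Ery Luc contacts found in Ery shStag2, 40.2%, was 66.5%, 50% and 50% at these settings. For all contacts it was 72.6%, 50.5% and 52.7%, so at stricter scores the members lay near all contacts. Of 186 recomputed differences of 15 named genes, 10 changed sign. Between HPC and Ery Luc these were Oasl1 (-2) and Ddx58 (3) at scores of 7 or more, Ddx58 (2) at 10 or more and Tap1 (2) with the start only. Between the Ery lists they were Psmb8, Tap1 and Irf1 (-1 each) at 7 or more, Oasl1 (2) and Psmb8 (-2) in either column, and Eif2ak2 (1) with other chromosomes counted. The cause was not tested.

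No paired analysis was possible because each list pools its libraries and the counts come from no test. Settings planned for the RNA counts were not run, since no member was matched to a transcript identifier.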

Other observations

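Both captured fragments of Oasl1 on chromosome 5 had contacts with 1 fragment on chromosome 7, chr7:64410151-64412480, which holds the end of Mcee. The fragment with the Oasl1 start was joined to it with scores of 6.88 in HPC and 35.03 in Ery Luc and was not listed with it in Ery shStag2. The fragment with the other end of Oasl1 was joined to it with scores of 19.97 in HPC, 13.19 in Ery Luc and 17.48 in Ery shStag2. Oasl1 had no contact within its chromosome with a score above 8.27.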
